A study of Mus musculus with 18 samples.

Results

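The 10 genes described here are the stress-induced transcription factor gene Atf4, 2 genes that act downstream of it (Ddit3 and Trib3), and 7 genes of amino acid supply (Asns, Phgdh, Psat1, Shmt2, Mthfd2, Slc7a5 and Slc7a11). They were chosen by name, from 54446 gene IDs in the deposited count files, and all 10 were among the 15516 genes that passed the filter on low counts. RNA was profiled in cells of the osterix lineage (osterix is a transcription factor of bone-forming cells) that were sorted from mice on postnatal day 21. Control mice, labelled wild type, were set against mice labelled as carrying a conditional PTH1R knockout. PTH1R binds parathyroid hormone and its related protein, and the series title places the deletion in osteoprogenitors. Each genotype gave 3 sorted subsets: bone marrow stromal cells that were GFP-negative and Tm-positive (marrow), GFP-positive bone cells, and GFP-negative, Tm-positive bone cells. This made 6 groups of 3 libraries. The labels name neither the driver of the knockout nor the alleles behind GFP and Tm, and they leave it unsaid whether replicates are separate animals, so the p-values measure the spread between these libraries.

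Atf4 encodes the effector of the integrated stress response. When a kinase that senses amino acid shortage, unfolded protein or other stress phosphorylates the initiation factor eIF2, general translation slows while Atf4 mRNA is translated more, so the level of Atf4 mRNA is not the level of its protein. ATF4 protein switches on genes for amino acid import and synthesis, for tRNA charging and, under lasting stress, for cell death. In bone-forming cells, which secrete large amounts of collagen, ATF4 is known for its part in osteoblast differentiation and amino acid import, and glycine made from serine is a main building block of collagen.

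ATF4 binds with C/EBP proteins at a composite element, searched here as TGATGNAA, and the cAMP response element was searched as TGACGTCA. RefSeq promoters (build GRCm38.p6, which is mm10) from 250 bases before to 50 after the start were matched for 9 of the 10 genes. The composite element was found, on either strand, in the promoters of 3 of these 9 (Asns, Slc7a11 and Trib3), against 4.51% of all 27025 genes in the table (3.97% of its 32851 promoters). The cAMP response element was in none of the 9 and in 2.03% of all genes (1.79% of promoters). The 100 bases upstream of the start of Asns and of Slc7a11 are printed on the gene strand, 5′ to 3′, to show where the element lies in a gene whose knockout response differed between subsets and in a gene whose libraries disagreed. For Trib3, where the match lies just after the start of the promoter entry, a short stretch is given. That match lies before the annotated start of Trib3, at 152344032 on the minus strand. The bases just after the promoter entry's start were not found in an annotated Trib3 transcript. Capitals mark the element.
Asns, chr6:7693210-7693309, minus strand: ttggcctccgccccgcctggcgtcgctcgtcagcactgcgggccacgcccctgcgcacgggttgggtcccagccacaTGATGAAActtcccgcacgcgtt
Slc7a11, chr3:50443614-50443713, minus strand: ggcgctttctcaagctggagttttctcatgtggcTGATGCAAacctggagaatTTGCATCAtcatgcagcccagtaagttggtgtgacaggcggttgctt
Trib3, chr2:152344031-152344054, minus strand: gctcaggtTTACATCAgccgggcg
In Asns the element begins 23 bases before the start of the promoter entry. In the annotation used for gene coordinates, Asns begins at 7693254 on this minus strand, so the element lies inside the annotated gene. Slc7a11 holds 1 copy on the gene strand, 66 bases before the start, and 1 on the opposite strand, 47 bases before it. A match of letters is a description and shows no binding.

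Libraries held 16443595 to 27160257 counts. Levels are counts per 1e6 of the TMM-scaled library size (CPM), given per library in the order of replicates 1, 2 and 3. Log2 fold changes are given ± SE with adjusted p-values from edgeR's quasi-likelihood test (Benjamini-Hochberg over 15516 genes), and a gene is said to rise, fall, or be higher or lower only with an adjusted p under 0.05. Pth1r itself had its 3 knockout values below its 3 control values in each subset and was counted in all 18 libraries, with log2 fold changes of -0.70 in marrow, -0.52 in GFP-positive bone and -0.56 in GFP-negative bone (edgeR adjusted p = 0.000195, 0.00226 and 0.00144). Fold changes followed exon length in all 3 subsets (Spearman 0.37 to 0.40 across 15516 genes, which are not independent replicates), so values after a length correction stand beside those they change. With that correction the fall of Pth1r passed the threshold in marrow only (edgeR adjusted p = 0.00524, 0.175 and 0.0570). Marker genes bear on every subset. Their sums are counts per 1e6 of the plain library total, without TMM scaling, while their calls come from the TMM-scaled fit. The summed chondrocyte markers reached 106063 to 129646 CPM in GFP-positive bone of controls and 243926 to 259015 CPM in its knockouts, where 5 of 6 markers rose. They held 28328 to 38586 CPM in GFP-negative bone of controls and 20371 to 23083 CPM in its knockouts, where 4 of 6 fell. In marrow they held 1880 to 2300 CPM in controls and 2596 to 2949 CPM in knockouts, where 3 of 6 rose and 2 fell. Osteoblast markers summed to 194699 to 264017 CPM in control marrow and to 97844 to 135814 CPM in knockout marrow, where 7 of 8 fell, and marrow stroma markers summed to 25383 to 37820 CPM and 47004 to 58190 CPM, with 5 of 6 higher in knockouts. Marrow stroma markers were also higher in knockouts in GFP-negative bone (6 of 6, with sums of 1121 to 1556 CPM in controls and 3012 to 3325 CPM in knockouts) and in GFP-positive bone (5 of 6, 342 to 389 CPM and 556 to 709.9 CPM). Osteoblast markers in GFP-negative bone summed to 286026 to 316210 CPM in controls and 393053 to 480167 CPM in knockouts, where 4 of 8 rose and 0 fell. In GFP-positive bone 4 of 8 rose and 1 fell, with overlapping sums of 44398 to 72780 CPM and 53531 to 70957 CPM. No marker of these 3 lists was at 0. Col1a1 and Col1a2 made up most of the osteoblast sums, and Col2a1 most of the chondrocyte sums. On plain totals in GFP-negative bone, Col1a1 averaged 219634 CPM in controls and 290419 CPM in knockouts. Col1a2, Runx2, Ibsp and Spp1 moved the same way there, and Bglap, Sp7 and Alpl the other way. In GFP-positive bone Col2a1 averaged 91556 and 218855 CPM. Acan, Sox9 and Col9a1 moved the same way there, and Matn1 and Comp slightly the other way. In sorted bulk cells, a change in the mix of cells and a change in RNA per cell cannot be told apart, and the part of these markers in any result here was not tested. Replicate 2 of knockout marrow also held 274 CPM of megakaryocyte markers, against 2.69 and 3.95 CPM in the other libraries of its group.

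In control mice, 7 of the 10 genes differed between every pair of subsets in the same order, highest in GFP-positive bone, then GFP-negative bone, then marrow: Atf4, Ddit3, Trib3, Asns, Shmt2, Mthfd2 and Slc7a5. The share of all genes with this order in every pair was not computed, and the shares below are for single pairs. Phgdh and Psat1, the first enzymes of serine synthesis, were instead lowest in GFP-positive bone. From GFP-negative to GFP-positive bone of controls, 7 genes were higher and 2 lower, where 18.2% of all genes tested were higher and 21.8% lower. In GFP-negative bone against marrow, 8 were higher and 0 lower (21.1% and 18.2% of all genes), with 0 lower also at an unadjusted edgeR p under 0.05 and with DESeq2. In GFP-positive bone against marrow, 7 were higher and 2 lower (29.8% and 33.0%). The knockouts gave 7 higher and 2 lower between the bone subsets (25.5% and 24.9% of all genes), 8 higher and 1 lower between GFP-negative bone and marrow (22.6% and 24.3%), and 7 higher and 1 lower between GFP-positive bone and marrow (32.6% and 34.7%). With library totals alone, 3 of the knockout calls between GFP-negative bone and marrow were lost, those of Atf4 (0.17), Ddit3 (0.45) and Psat1 (0.32, edgeR adjusted p = 0.207, 0.0608 and 0.147). The control means of Slc7a11 stood in that order too (11.1, 9.14 and 8.68 CPM), with overlapping groups and no call. Chondrocyte markers followed the order of the 7 genes over the subsets in both genotypes.

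Over all 6 groups, Asns and Mthfd2 shared 1 order: both GFP-positive groups on top and overlapping, then control GFP-negative bone, knockout GFP-negative bone, control marrow and knockout marrow, with no overlap between these neighbours. Slc7a5 ran from GFP-positive knockout through GFP-positive control, GFP-negative knockout and GFP-negative control bone down to the 2 marrow groups, and among these neighbours the marrow groups alone overlapped. Atf4, Ddit3 and Trib3 also had GFP-positive knockout bone on top and marrow lowest, and their marrow groups overlapped. For Shmt2 control GFP-negative bone stood between the 2 GFP-positive groups, and the neighbours that overlapped were the GFP-positive and GFP-negative knockouts. Phgdh was highest in control marrow, which overlapped with knockout marrow, and lowest in GFP-positive knockout bone, which overlapped with no other group. Psat1 was highest in control GFP-negative bone, apart from the rest, and lowest in GFP-positive knockout bone, which overlapped with knockout marrow.

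**Figure D1:**
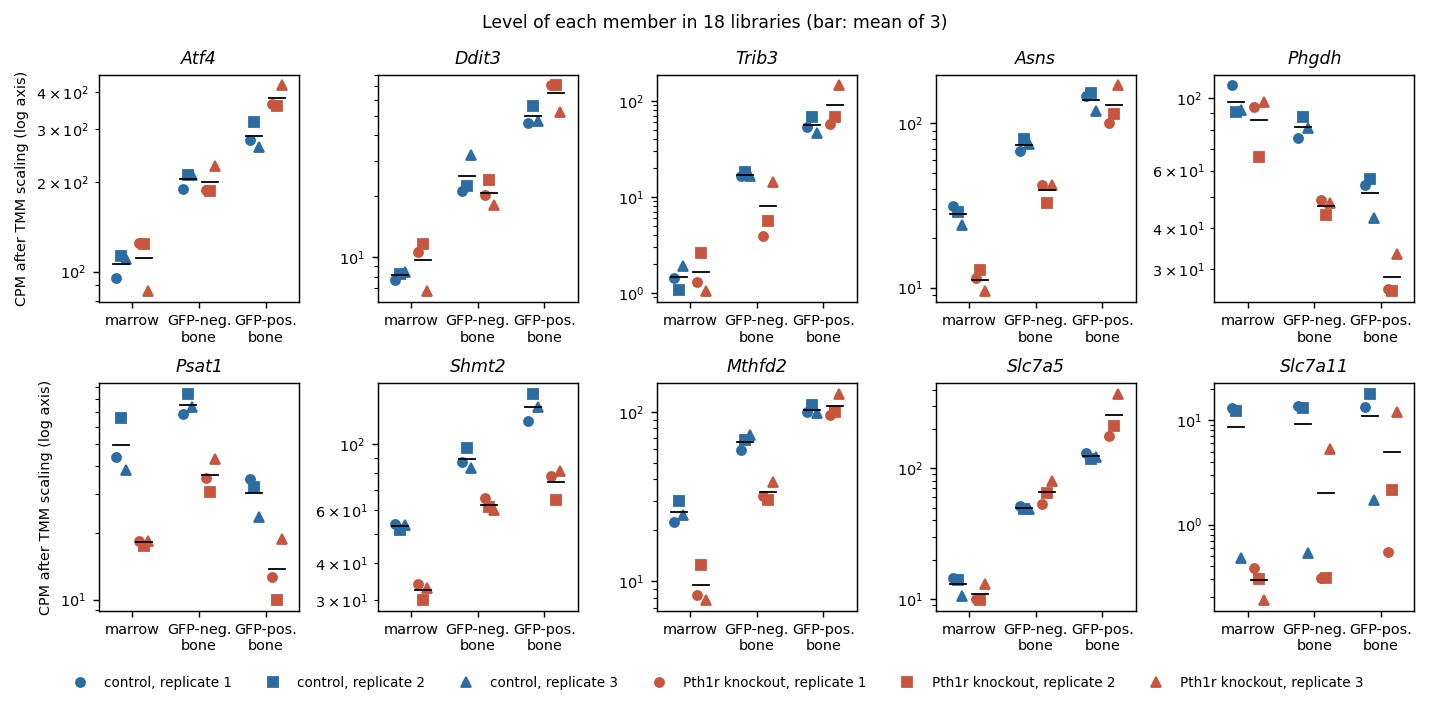
Level of each of the 10 genes in CPM after TMM scaling (log axis, 1 panel per gene with its own range) in marrow, GFP-negative bone and GFP-positive bone. Points are single libraries, with shape giving the replicate number and colour the genotype, and bars are means of 3; 7 genes climb from marrow to GFP-positive bone, Phgdh and Psat1 are lowest in GFP-positive knockout bone, and Slc7a11 splits within groups.

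Atf4 (ENSMUSG00000042406.8, mm10 chromosome 15, 80255184 to 80257541, plus strand) had the highest level per exon length of the set in each of the 6 groups, with a mean of 47.3 CPM per kilobase in knockout marrow and 162 in GFP-positive knockout bone. In marrow levels were 95.4, 113 and 110 CPM in controls, against 125, 124 and 85.8 CPM in knockouts, and the groups overlapped. In GFP-negative bone levels were 189, 211 and 211 CPM in controls, against 187, 187 and 226 CPM in knockouts, again with overlap. In GFP-positive bone levels were 277, 317 and 262 CPM in controls, against 365, 359 and 423 CPM in knockouts. Every GFP-positive knockout library was above every control library there, and these were the highest values of all 18. The log2 fold changes of knockout over control were 0.07 ± 0.13 in marrow, -0.03 ± 0.13 in GFP-negative bone and 0.42 ± 0.13 in GFP-positive bone (edgeR adjusted p = 0.682, 0.890 and 0.00984). The rise in GFP-positive bone was 0.04 with scaling by library totals alone (edgeR adjusted p = 0.816), and 0.35 without replicate 3 of the GFP-positive knockouts (edgeR adjusted p = 0.0509). With the length correction Atf4 rose in GFP-positive bone by 0.79 ± 0.13 and in marrow by 0.36 ± 0.13 (edgeR adjusted p = 6.54e-05 and 0.0324).

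Ddit3 (ENSMUSG00000025408.15, chromosome 10, 127290774 to 127296288, plus strand) encodes CHOP, a factor tied to cell death under lasting stress. Its levels were 7.71, 8.21 and 8.47 CPM in control marrow and 10.6, 11.6 and 6.76 CPM in knockout marrow. In GFP-negative bone they were 21.2, 22.4 and 31.9 CPM in controls and 20.2, 24.1 and 18.2 CPM in knockouts. In GFP-positive bone they were 46.0, 55.7 and 47.4 CPM in controls and 70.9, 71.1 and 52.0 CPM in knockouts. Genotypes overlapped in all 3 subsets, while the subsets did not overlap with each other within either genotype. No knockout effect passed the threshold, with 0.26 ± 0.21 in marrow, -0.27 ± 0.19 in GFP-negative bone and 0.38 ± 0.17 in GFP-positive bone (edgeR adjusted p = 0.312, 0.258 and 0.0662). After length correction Ddit3 rose in marrow by 0.63 ± 0.21 and in GFP-positive bone by 0.83 ± 0.17 (edgeR adjusted p = 0.0228 and 0.000733). Its GFP-positive call was also made with RLE scaling, with only the libraries compared in the fit, and without replicate 3 of the knockouts. Ddit3 shares at most 68 exon bases with Mars on the opposite strand, and since strand use in counting is not given, those reads cannot be assigned with certainty.

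Trib3 (ENSMUSG00000032715.9, chromosome 2, 152337422 to 152344032, minus strand) encodes a pseudokinase that damps ATF4 activity, and its level differed widely between subsets. Control marrow held 1.42, 1.07 and 1.90 CPM and knockout marrow 1.29, 2.58 and 1.03 CPM. In GFP-negative bone levels were 16.4, 17.9 and 16.4 CPM in controls, against 3.87, 5.67 and 14.3 CPM in knockouts. In GFP-positive bone levels were 53.5, 67.0 and 46.1 CPM in controls, against 57.9, 67.3 and 147 CPM in knockouts. In both bone subsets replicate 3 was the highest knockout library, and in GFP-negative bone all knockouts were below all controls. From marrow to GFP-positive bone, Trib3 was higher by 5.25 ± 0.51 in controls and by 5.76 ± 0.49 in knockouts on the log2 scale (edgeR adjusted p = 2.96e-07 and 5.74e-08). The knockout effect was -1.13 ± 0.44 in GFP-negative bone (edgeR adjusted p = 0.0471), 0.69 ± 0.35 in GFP-positive bone and 0.19 ± 0.72 in marrow (0.114 and 0.858). The fall in GFP-negative bone is a weak call. It was lost with DESeq2 (-0.99, adjusted p = 0.109), with RLE scaling, with no filter on low counts, with the length correction (-0.76, edgeR adjusted p = 0.192), and without replicate 1, 2 or 3 of the controls or replicate 1 or 2 of the knockouts (edgeR adjusted p = 0.0825 to 0.184). Without knockout replicate 3 the fall was -1.82 (edgeR adjusted p = 0.00302). After length correction Trib3 rose in GFP-positive bone by 1.09 ± 0.35 (edgeR adjusted p = 0.0197). Without the correction the value there was 0.17 when knockout replicate 3 was left out (edgeR adjusted p = 0.674), and the corrected value was not computed without that library.

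In the knockout, Asns, Psat1, Shmt2 and Mthfd2 fell in both marrow and GFP-negative bone, and Phgdh fell in both bone subsets. In GFP-positive bone Phgdh, Psat1 and Shmt2 fell, whereas Atf4 and Slc7a5 rose. In marrow 5 of the 10 genes fell (Asns, Psat1, Shmt2, Mthfd2 and Slc7a11) and 0 rose, where 24.8% of all genes fell and 23.1% rose. In GFP-negative bone 6 fell (Trib3, Asns, Phgdh, Psat1, Shmt2 and Mthfd2) and 0 rose, where 25.7% of all genes fell and 21.5% rose. In GFP-positive bone 3 fell and 2 rose (Atf4 and Slc7a5), where 25.3% fell and 26.0% rose. Psat1 and Shmt2 fell in all 3 subsets, and the share of all genes that did so was not computed. The counts of 0 that rose in marrow and GFP-negative bone were also 0 at an unadjusted edgeR p under 0.05 and 0 with DESeq2. After length correction 2 genes rose in marrow, Atf4 and Ddit3, and with the correction on the longest transcript Atf4 rose in GFP-negative bone (0.34, edgeR adjusted p = 0.0469).

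**Figure D2:**
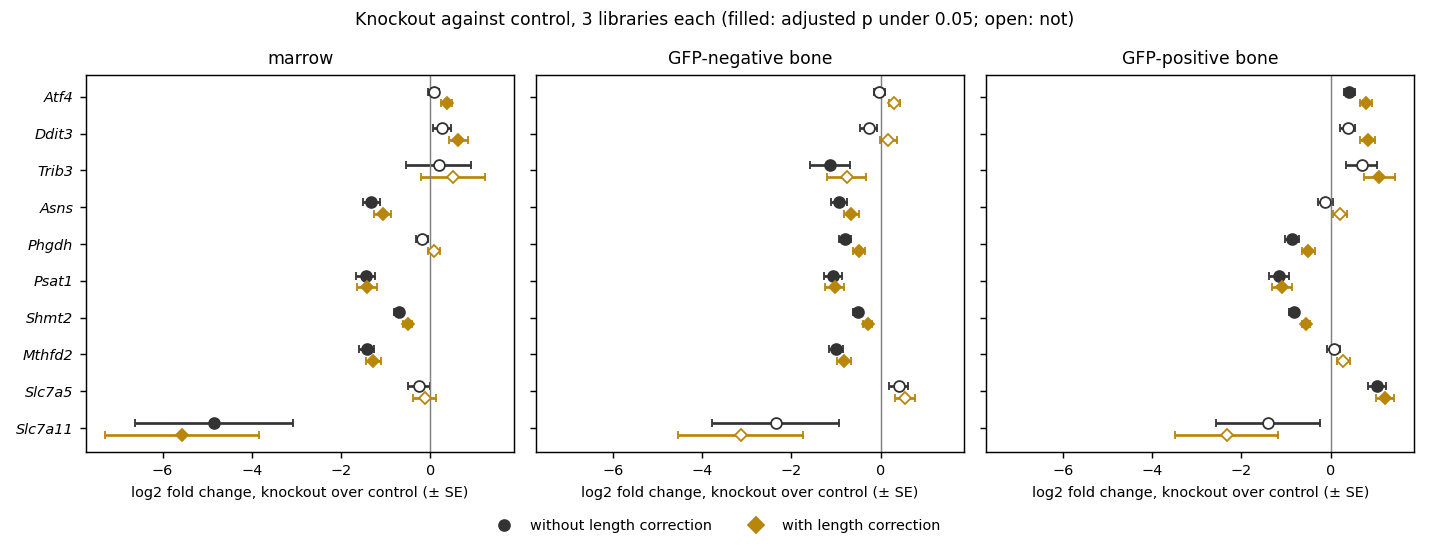
Log2 fold change of knockout over control ± SE for the 10 genes in marrow, GFP-negative bone and GFP-positive bone (3 libraries against 3 each), without (circles) and with (diamonds) the length correction. Filled symbols have an adjusted p under 0.05; Asns and Mthfd2 lie near -1 or below in marrow and GFP-negative bone without the correction and near 0 in GFP-positive bone.

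Asns (ENSMUSG00000029752.12, chromosome 6, 7675169 to 7693254, minus strand) encodes asparagine synthetase, a standard target of ATF4. In marrow levels were 31.2, 29.0 and 24.0 CPM in controls, against 11.4, 12.7 and 9.48 CPM in knockouts. In GFP-negative bone levels were 67.2, 80.6 and 74.4 CPM in controls, against 41.8, 32.7 and 42.3 CPM in knockouts. In GFP-positive bone levels were 147, 152 and 118 CPM in controls, against 100, 114 and 171 CPM in knockouts. The genotypes were apart in marrow and GFP-negative bone and overlapped in GFP-positive bone, where knockout replicate 3 was the highest library. Asns fell by 1.32 ± 0.19 in marrow and by 0.93 ± 0.17 in GFP-negative bone on the log2 scale (edgeR adjusted p = 1.36e-05 and 0.000229), and changed by -0.12 ± 0.17 in GFP-positive bone (edgeR adjusted p = 0.570). Without knockout replicate 3 the value in GFP-positive bone was -0.38 and passed the threshold (edgeR adjusted p = 0.0430), as it did with library totals alone (-0.50, edgeR adjusted p = 0.0138).

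Phgdh (ENSMUSG00000053398.11, chromosome 3, 98313170 to 98339990, minus strand) catalyses the first step from glycolysis into serine. Its levels in marrow were 110, 90.9 and 91.9 CPM in controls and 93.8, 66.0 and 96.9 CPM in knockouts, with overlap. In GFP-negative bone they were 75.3, 87.7 and 81.2 CPM in controls and 48.9, 43.8 and 47.9 CPM in knockouts. In GFP-positive bone they were 54.4, 56.7 and 43.1 CPM in controls and 26.2, 25.7 and 33.4 CPM in knockouts. The genotypes did not overlap in either bone subset. Phgdh fell by 0.80 ± 0.14 in GFP-negative and by 0.87 ± 0.15 in GFP-positive bone (edgeR adjusted p = 0.000155 and 7.20e-05), against -0.19 ± 0.14 in marrow (edgeR adjusted p = 0.284). With the length correction the falls were -0.48 ± 0.14 and -0.51 ± 0.14 and still passed the threshold. The annotation holds 1 processed copy of Phgdh, Phgdh-ps1, and reads shared with it are uncertain.

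Psat1 (ENSMUSG00000024640.9, chromosome 19, 15904678 to 15947337, minus strand) encodes the next enzyme of serine synthesis. In marrow levels were 43.9, 65.7 and 38.5 CPM in controls, against 18.4, 17.5 and 18.4 CPM in knockouts. In GFP-negative bone levels were 68.0, 84.4 and 73.4 CPM in controls, against 35.2, 30.6 and 42.9 CPM in knockouts. In GFP-positive bone levels were 34.8, 32.0 and 23.5 CPM in controls, against 12.7, 9.94 and 18.7 CPM in knockouts. No knockout library reached the lowest control library of its subset. Psat1 fell by 1.45 ± 0.21 in marrow, by 1.06 ± 0.21 in GFP-negative bone and by 1.16 ± 0.22 in GFP-positive bone (edgeR adjusted p = 1.97e-05, 0.000345 and 0.000275). In controls it was higher in GFP-negative bone than in marrow by 0.61 ± 0.20 (edgeR adjusted p = 0.0220), a call lost with library totals alone and without replicate 2 of GFP-negative bone or replicate 1 or 3 of marrow (edgeR adjusted p = 0.0865 to 0.155). In controls it was lower in GFP-positive bone than in marrow, at -0.71 ± 0.20 (edgeR adjusted p = 0.00571), or -0.46 without control marrow replicate 2 (edgeR adjusted p = 0.0538). In knockouts this contrast was -0.42 ± 0.23 (edgeR adjusted p = 0.110), and -0.45 ± 0.17 with the replicate number as a block (edgeR adjusted p = 0.0278).

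Shmt2 (ENSMUSG00000025403.5, chromosome 10, 127517123 to 127522444, minus strand) turns serine into glycine and a one-carbon unit in mitochondria. In marrow levels were 54.1, 51.7 and 53.6 CPM in controls, against 34.0, 30.0 and 33.1 CPM in knockouts. In GFP-negative bone levels were 87.4, 97.1 and 83.0 CPM in controls, against 66.1, 61.4 and 60.0 CPM in knockouts. In GFP-positive bone levels were 119, 148 and 133 CPM in controls, against 78.4, 64.8 and 81.3 CPM in knockouts. Genotypes were apart in every subset. Each GFP-positive knockout library was also below each GFP-negative control library, a pair of groups that was not tested (highest 81.3 and lowest 83.0 CPM). Shmt2 fell by 0.71 ± 0.10 in marrow, by 0.51 ± 0.10 in GFP-negative bone and by 0.83 ± 0.10 in GFP-positive bone (edgeR adjusted p = 1.67e-05, 0.000405 and 1.52e-06). After length correction the fall in GFP-positive bone was -0.55 ± 0.10, and that in GFP-negative bone was -0.29 ± 0.10 (edgeR adjusted p = 0.0287), and with a correction on the longest transcript it was -0.21 and not called (edgeR adjusted p = 0.107). In knockouts Shmt2 was higher in GFP-positive than in GFP-negative bone by 0.26 ± 0.10 (edgeR adjusted p = 0.0439). That call was lost with no filter on low counts, with only the libraries compared, and without replicate 2 or 3 of GFP-negative or replicate 1 or 3 of GFP-positive knockout bone (edgeR adjusted p = 0.0874 to 0.164). Shmt2 shares at most 32 exon bases with Ndufa4l2 on the opposite strand.

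Mthfd2 (ENSMUSG00000005667.8, chromosome 6, 83305691 to 83325908, minus strand) carries the mitochondrial one-carbon unit onward to formate. In marrow levels were 22.4, 29.9 and 24.8 CPM in controls, against 8.34, 12.4 and 7.75 CPM in knockouts. In GFP-negative bone levels were 59.3, 67.8 and 73.1 CPM in controls, against 32.1, 30.2 and 38.8 CPM in knockouts. In GFP-positive bone levels were 99.6, 109 and 98.8 CPM in controls, against 95.2, 99.6 and 128 CPM in knockouts. The genotypes were apart in marrow and in GFP-negative bone and overlapped in GFP-positive bone. Mthfd2 fell by 1.43 ± 0.17 in marrow and by 0.99 ± 0.16 in GFP-negative bone (edgeR adjusted p = 1.85e-06 and 4.09e-05), against 0.07 ± 0.15 in GFP-positive bone (edgeR adjusted p = 0.743). With a correction on the longest transcript it rose there by 0.47 (edgeR adjusted p = 0.0172).

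Slc7a5 (ENSMUSG00000040010.10, chromosome 8, 121881150 to 121907694, minus strand) encodes LAT1, an importer of large neutral amino acids such as leucine. Marrow held 14.4, 14.1 and 10.5 CPM in controls and 10.1, 9.78 and 13.1 CPM in knockouts. GFP-negative bone held 51.4, 49.0 and 48.4 CPM in controls and 52.9, 65.1 and 79.4 CPM in knockouts. GFP-positive bone held 130, 117 and 122 CPM in controls and 176, 212 and 372 CPM in knockouts. Marrow overlapped between genotypes, whereas in both bone subsets all knockouts were above all controls, with replicate 3 the highest. Slc7a5 rose by 1.04 ± 0.21 in GFP-positive bone (edgeR adjusted p = 0.000472), and the values in GFP-negative bone and marrow were 0.40 ± 0.22 and -0.25 ± 0.25 (edgeR adjusted p = 0.141 and 0.427). The rise in GFP-positive bone was 0.66 without knockout replicate 3 (edgeR adjusted p = 0.00129) and 0.66 with library totals alone (edgeR adjusted p = 0.0133). The value in GFP-negative bone passed the threshold with only the libraries compared in the fit (0.47, edgeR adjusted p = 0.0144).

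The knockout effect itself differed between GFP-positive bone and marrow for 4 of the 10 genes, where it did so for 18.4% of all genes. It was higher in GFP-positive bone for Mthfd2 by 1.49 ± 0.23, for Slc7a5 by 1.29 ± 0.32 and for Asns by 1.20 ± 0.25 on the log2 scale (edgeR adjusted p = 0.000175, 0.0105 and 0.00285). It was lower for Phgdh, at -0.68 ± 0.20 (edgeR adjusted p = 0.0262). The Phgdh difference was lost in 8 of the 12 fits that left out 1 library (the exceptions were control GFP-positive replicate 3, knockout GFP-positive replicate 3, control marrow replicate 1 and knockout marrow replicate 2; edgeR adjusted p = 0.0588 to 0.0740 in the 8), with only the libraries compared and with the longest-transcript correction. With library totals alone the differences of Mthfd2, Asns and Phgdh were 0.98, 0.69 and -1.19 and still passed. The Slc7a5 difference was 0.78 with library totals alone (edgeR adjusted p = 0.0757) and 1.21 with no filter on low counts (edgeR adjusted p = 0.0523). Between the bone subsets 1 gene passed, Mthfd2, with an effect higher in GFP-positive bone by 1.06 ± 0.22 (edgeR adjusted p = 0.00569), where 6.08% of all genes passed. Trib3 (1.83 ± 0.56) and Asns (0.81 ± 0.24) came next and missed the threshold (edgeR adjusted p = 0.0739 and 0.0534). Asns passed with DESeq2 (0.75, adjusted p = 0.0482) and with the length correction (0.86, edgeR adjusted p = 0.0350), and Trib3 with the replicate number as a block (1.78, edgeR adjusted p = 0.0487). With a block within each genotype, chosen after seeing the data, Trib3 (1.84), Asns (0.80), Slc7a5 (0.59) and Ddit3 (0.64) passed as well (edgeR adjusted p = 0.00422, 0.0403, 0.0394 and 0.0436). Between GFP-negative bone and marrow 0 of the 10 differences passed in edgeR (7.79% of all genes did) and 0 in DESeq2, while 1 had an unadjusted edgeR p under 0.05. The nearest was that of Phgdh, at -0.61 ± 0.20 (edgeR adjusted p = 0.0719). With the block within genotype Phgdh (-0.59) and Slc7a5 (0.64) passed (edgeR adjusted p = 0.0306 and 0.0384), and for GFP-positive bone minus marrow Slc7a11 did (3.26, edgeR adjusted p = 0.00696). The 3 subsets are compared pairwise, so these differences share libraries. Chondrocyte markers also moved in opposite directions between the bone subsets, and their part in these differences was not tested.

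Slc7a11 (ENSMUSG00000027737.10, chromosome 3, 49892526 to 50443614, minus strand) encodes xCT, which imports cystine for glutathione synthesis, and its libraries split within groups. In control marrow it held 13.2, 12.4 and 0.476 CPM, in control GFP-negative bone 13.9, 13.0 and 0.539 CPM and in control GFP-positive bone 13.5, 18.02 and 1.73 CPM. In all 3 control groups replicate 3 was the low library. Knockout marrow held 0.386, 0.299 and 0.188 CPM, knockout GFP-negative bone 0.310, 0.309 and 5.36 CPM and knockout GFP-positive bone 0.548, 2.13 and 12.1 CPM. In the knockouts replicate 3 was the high library in both bone subsets and the lowest in marrow. Replicate 3 of all 6 groups also differed in sex-linked RNA: Xist, made from the inactive X chromosome, was at 1.25 to 10.3 CPM in the 6 replicate 3 libraries and at 0 to 0.193 CPM in the other 12, and the summed Y-linked genes Ddx3y, Eif2s3y, Kdm5d and Uty were at 1.11 to 3.00 CPM and 91.0 to 189 CPM. In GFP-positive knockout bone replicate 3 was also the highest library of its group for each other member except Ddit3, for which it was the lowest. The part of the sex of the mice in the values of Slc7a11 or of the other members was not tested.

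**Figure D3:**
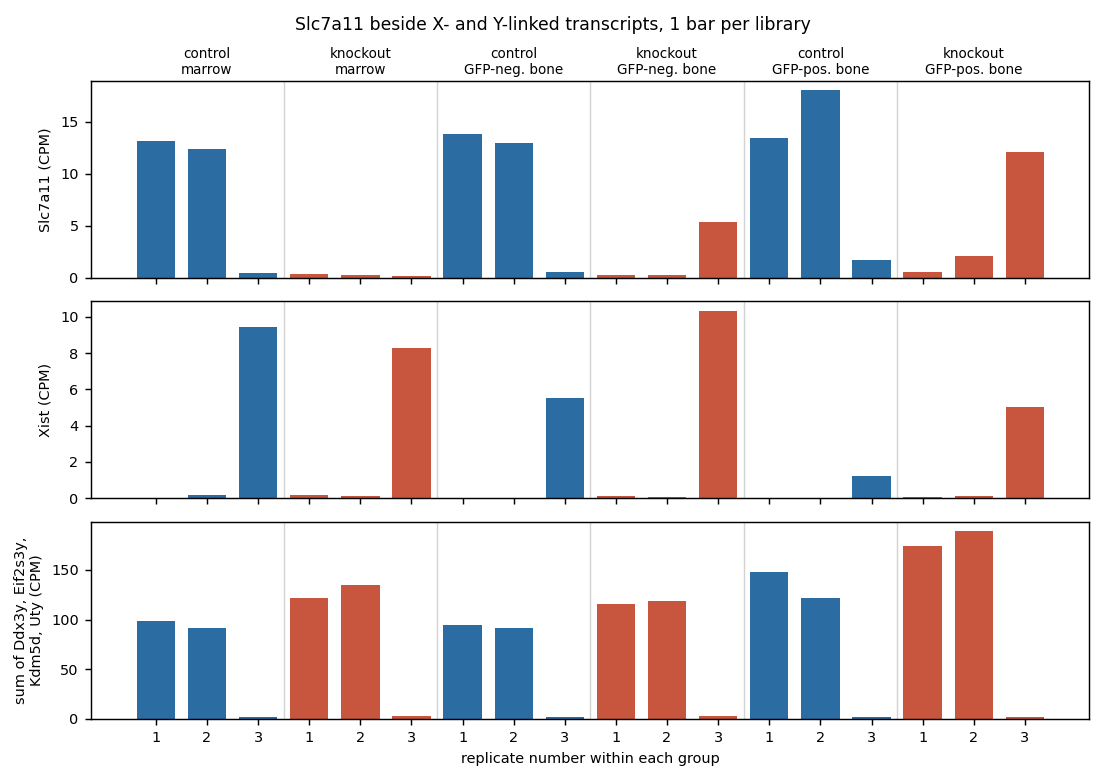
Slc7a11, Xist and the sum of 4 Y-linked genes in CPM in each of the 18 libraries (1 bar per library, 3 per group, colour by genotype). Replicate 3 is the low Slc7a11 library in the 3 control groups and the high one in knockout bone, and in all 6 groups it is the library with Xist and almost no Y-linked RNA.

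Slc7a11 fell in knockout marrow, with a log2 fold change of -4.85 ± 1.77 (edgeR adjusted p = 0.0373). The groups there did not overlap, but the call was lost with no filter on low counts, with the replicate number as a block (-4.79, edgeR adjusted p = 0.05002), and without any 1 library of the 2 groups except control replicate 3 (edgeR adjusted p = 0.0892 to 0.105). The values in GFP-negative and GFP-positive bone were -2.35 ± 1.42 and -1.40 ± 1.16 (edgeR adjusted p = 0.199 and 0.341), with overlapping groups. In knockouts, GFP-positive bone against marrow gave 3.79 ± 2.07 (edgeR adjusted p = 0.120). With the replicate number as a block, Slc7a11 was higher in knockout GFP-positive than in GFP-negative bone by 1.34 ± 0.52, higher in GFP-negative bone than in marrow by 2.32 ± 0.80 and higher in GFP-positive bone than in marrow by 3.66 ± 0.67 (edgeR adjusted p = 0.0394, 0.0238 and 0.000146). No subset contrast of controls passed for Slc7a11, with 0.30 ± 1.03 between the bone subsets and 0.05 ± 1.06 between GFP-negative bone and marrow.

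In each of the 3 subsets more listed integrated stress response genes rose than fell in the knockout. Of 22, 9 rose and 6 fell in marrow (median log2 fold change 0.25 against -0.04 over all genes), 12 and 2 in GFP-positive bone (0.51 against 0.03) and 10 and 4 in GFP-negative bone (0.43 against -0.07). Of all genes tested, 23.1% were higher and 24.8% lower in marrow, 26.0% and 25.3% in GFP-positive bone, and 21.5% and 25.7% in GFP-negative bone. In GFP-positive bone library totals alone gave 6 stress response genes that rose and 4 that fell. Ppp1r15b, a subunit that directs dephosphorylation of eIF2, rose in all 3, from 37.2 ± 2.79 to 98.5 ± 15.2 CPM in marrow, from 36.0 ± 1.26 to 115 ± 7.26 CPM in GFP-positive bone and from 31.0 ± 5.27 to 72.1 ± 15.2 CPM in GFP-negative bone (SD, n = 3). Sesn2, a leucine sensor upstream of mTORC1, also rose in all 3, by 0.89, 1.30 and 0.47 on the log2 scale in the same order. Chac1, which degrades glutathione, fell in marrow by 1.55 ± 0.20 and in GFP-negative bone by 1.46 ± 0.13, against -0.05 ± 0.11 in GFP-positive bone (edgeR adjusted p = 5.41e-06, 5.53e-08 and 0.720). After length correction it rose in GFP-positive bone by 0.39 ± 0.11 (edgeR adjusted p = 0.00507). Stc2, a secreted glycoprotein, rose in GFP-positive bone by 0.88 ± 0.09 and fell in marrow and GFP-negative bone by 0.56 ± 0.18 and 0.48 ± 0.10.

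Among other serine, glycine and one-carbon genes the falls outnumbered the rises. Of 15 tested (16 listed), 1 rose and 5 fell in marrow (median -0.18), 3 rose and 6 fell in GFP-positive bone (median -0.52), and 3 rose and 8 fell in GFP-negative bone (median -0.76), where 23.1%, 26.0% and 21.5% of all genes were higher and 24.8%, 25.3% and 25.7% lower. With library totals alone 1 rose and 11 fell in GFP-positive bone. Tyms, thymidylate synthase, fell in all 3 subsets, from 19.4 ± 1.03 to 10.9 ± 0.99 CPM in marrow. Psph, the last enzyme of serine synthesis, fell from 34.5 ± 3.54 to 17.1 ± 2.32 CPM in GFP-positive bone and from 16.5 ± 1.48 to 8.75 ± 1.29 CPM in GFP-negative bone. Its value in marrow was -0.25 ± 0.14 (edgeR adjusted p = 0.148). Gcsh of the glycine cleavage system and Sfxn1, a mitochondrial serine carrier, also fell in both bone subsets and had edgeR adjusted p-values of 0.577 and 0.328 in marrow. After length correction Sfxn1 fell in marrow too, and Gcsh rose there by 0.29 ± 0.11 (edgeR adjusted p = 0.000265 and 0.0330). The corrected falls of Gcsh were -0.45 in GFP-positive and -0.31 in GFP-negative bone, against -0.90 and -0.76 without correction, and those of Sfxn1 were -1.50 and -1.31, against -0.86 and -0.72.

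The counts for the transporters depended on the processing. Of 18 tested, 6 rose and 2 fell in marrow, 8 rose and 3 fell in GFP-positive bone, and 4 rose and 3 fell in GFP-negative bone (medians 0.18, 0.35 and 0.15), with 23.1%, 26.0% and 21.5% of all genes higher and 24.8%, 25.3% and 25.7% lower. With library totals alone the medians in GFP-positive and GFP-negative bone turned to -0.03 and -0.10, the median of all genes to -0.34 and -0.30, and the calls in GFP-positive bone to 3 that rose and 5 that fell. After length correction 4 rose and 5 fell in marrow and 1 rose and 5 fell in GFP-negative bone, with medians of -0.04 and -0.13. In GFP-positive bone 7 then rose and 4 fell, with a median of 0.003 against 0.05 over all genes. Slc1a5, a glutamine carrier, rose in marrow from 303 ± 88.1 to 945 ± 120 CPM. It also rose by 0.49 ± 0.15 on the log2 scale in GFP-positive bone and by 0.78 ± 0.15 in GFP-negative bone. The differences between these effects are not given here. Slc38a2, a sodium-coupled neutral amino acid carrier, rose by 0.74 to 0.81 in the 3 subsets, and by 0.26 and 0.30 in GFP-positive bone and marrow after the length correction, which ended its call in GFP-negative bone (0.22, edgeR adjusted p = 0.0871). Slc7a2, a carrier of cationic amino acids, rose in all 3, by 2.10 ± 0.23 in GFP-positive bone and by 1.28 ± 0.25 in marrow. The length correction ended its call in GFP-negative bone (0.59, edgeR adjusted p = 0.109). Slc7a7, a partner of SLC3A2 in the exchange of cationic and neutral amino acids, fell in all 3, from 23.9 ± 4.39 to 5.77 ± 0.70 CPM in marrow.

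Other enzymes of amino acid and glutathione synthesis and the cytosolic tRNA synthetases, which load amino acids onto tRNA, held more genes that fell than rose in each subset. Of 18 enzymes, 3 rose and 8 fell in marrow, 4 rose and 7 fell in GFP-positive bone, and 2 rose and 12 fell in GFP-negative bone (medians -0.11, -0.24 and -0.77). The shares of all genes higher and lower in knockouts were 23.1% and 24.8%, 26.0% and 25.3%, and 21.5% and 25.7% in the same order. With library totals alone the marrow median was 0.02, and 1 enzyme rose and 10 fell in GFP-positive bone. Aldh18a1 and Pycr1, which make proline, fell in every subset, Pycr1 from 90.7 ± 7.64 to 26.2 ± 7.01 CPM in marrow. Oat, which links ornithine and proline, fell by 0.87 ± 0.09 in GFP-positive bone, by 0.80 ± 0.09 in GFP-negative bone and by 0.29 ± 0.09 in marrow, and after the length correction these values were -0.50, -0.47 and 0.00, the last not called. Glul, glutamine synthetase, rose in marrow from 28.7 ± 1.22 to 135 ± 38.8 CPM and in GFP-negative bone from 12.2 ± 1.40 to 34.6 ± 4.60 CPM. In GFP-positive bone its value was 0.53 ± 0.23 (edgeR adjusted p = 0.0647), and 0.78 ± 0.23 after length correction (edgeR adjusted p = 0.00986). Of 20 synthetases, 1 rose and 11 fell in marrow, 5 rose and 12 fell in GFP-positive bone, and 2 rose and 13 fell in GFP-negative bone (medians -0.36, -0.35 and -0.38), against the same shares. Dars, Farsb and Mars fell in all 3 subsets, with and without the length correction. Gars also fell in all 3, but its call in GFP-positive bone ended with the correction (-0.08, edgeR adjusted p = 0.541). Nars stands in both the synthetase and the stress response list.

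**Figure D4:**
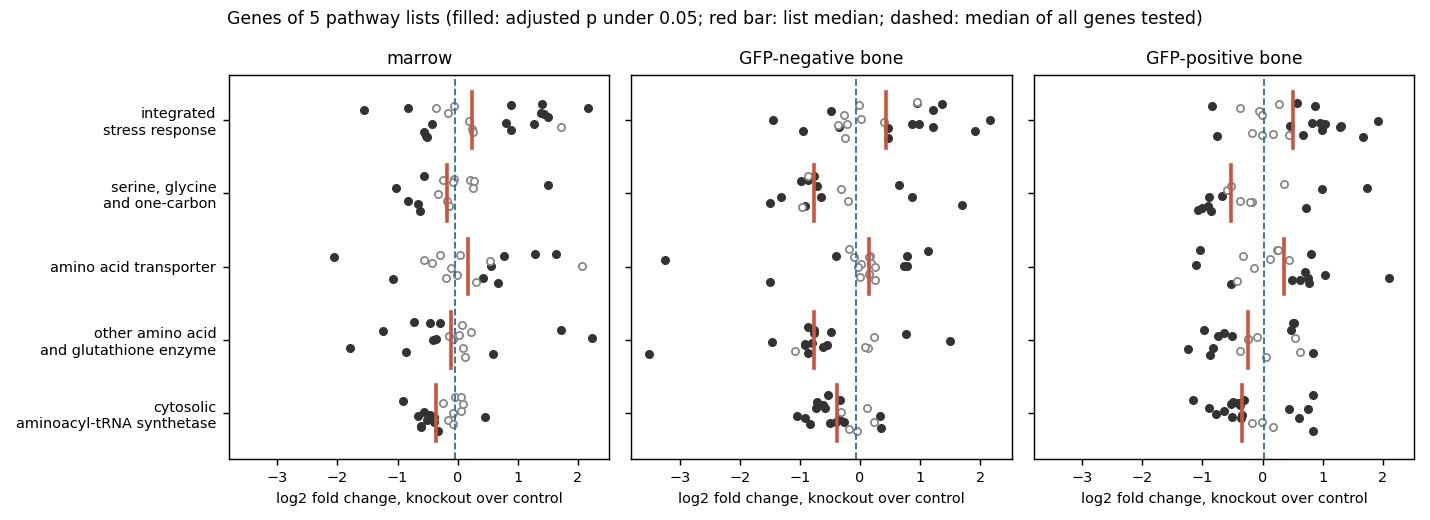
Log2 fold change of knockout over control for the genes of 5 lists in marrow, GFP-negative bone and GFP-positive bone. Each point is 1 gene (filled with an adjusted p under 0.05), red bars are list medians and dashed lines the median of all genes tested; stress response medians lie right of the dashed line and synthetase medians left of it in all 3 subsets.

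Over all 18 libraries, the 7 genes that peak in GFP-positive bone varied together, with Pearson r of log2(CPM + 1) from 0.72 to 0.99 over their 21 pairs (median 0.90). These points share subset and genotype, and the 7 were grouped by their shared order in these same libraries. A high r over all 18 follows in large part from that choice. After the group means were removed, r ran from -0.63 to 0.75 (median 0.21). Phgdh and Psat1 had r of 0.60 with each other, and 0.49 within groups. With the 7 genes their r ran from -0.84 to 0.27 over all 18 libraries (14 pairs, median -0.34). Within groups it ran from -0.47 to 0.69 (median 0.43), with a median above that among the 7 themselves. The genes most like each member over the 18 libraries, among 9487 searched, were Dusp18 for Atf4 (r = 0.98), Kcnk5 for Ddit3 (0.99), Cth, an enzyme of cysteine synthesis, for Trib3 (0.99), and Insig1, a brake on sterol synthesis, for Asns (0.99). They were Frzb, a secreted WNT inhibitor of cartilage, for Mthfd2 (0.99), Rps16, a ribosomal protein gene, for Shmt2 (0.98), and Fam129b for Slc7a5 (0.99). Hyal2 was most like Phgdh (0.97) and Tmem59 most like Psat1 (0.96). The closest gene to Slc7a11 was Cd74, the invariant chain of antigen presentation, with a lower r of 0.87.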

How the data were processed

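The authors deposited raw read counts per gene from featureCounts, per the file headers, for 18 libraries. Per the labels' protocols, RNA came from an RNeasy Plus Micro kit and libraries from SMART-Seq v4 and SMARTer ThruPLEX kits. Build mm10 and the tools STAR, featureCounts and DESeq2 appear, without versions, in the submitters' processing notes. Strand use and the handling of reads with several matches are not given in the sources used here. Of 54446 gene IDs, version stripped, 54409 matched a symbol in the mm10 annotation, which also gave the coordinates. Of 2 IDs named Ddit3, the longer model was used, and the other had 0 counts.

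Groups follow the titles and genotype labels. All 18 libraries were fitted as 6 group means in edgeR 4.0.16 (R 4.3.3), which leaves 12 residual degrees of freedom. The steps were filterByExpr by group (minimum count 10, minimum total 15), TMM scaling, and the robust quasi-likelihood F-test, two-sided, Benjamini-Hochberg adjusted over the genes tested, with calls at 0.05. SEs are approximate, taken as the log2 fold change over the root of F. A first fit with a trended dispersion had been seen before this form was taken, and it is kept as an alternative. Other settings were DESeq2 1.42.0, RLE scaling, library totals alone, no filter, only the libraries compared, each library left out, the replicate number as a block, and a length correction, which removes from each library a lowess trend (span 0.3) of its deviation from the subset mean on log2 exon length. The fit and the correction were tested on simulated data for the marrow comparison only, with independent libraries and the same dispersion for every gene. Those settings do not cover libraries that split within a group, as for Slc7a11. Counts of 3 correspond to 0.0965 to 0.216 CPM and set the floor for counting error only. Replicates were all kept apart, since each pair within a group exceeded sampling noise, at a chi-square of 14.9 to 55.9 per degree of freedom.

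The members and lists were chosen with earlier results of these data known. Named were all 10 members, up to 4 genes per list with the smallest p over the knockout comparisons, and for each member the genes with the highest r among those with at least 5 CPM on average.

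Same-numbered libraries were checked for shared deviations from their group means on log2 CPM. Correlations on this scale were at most 0.0831 between genotypes, so no pairing across genotypes was assumed. Replicate 3 of every group was nonetheless the library with Xist and little Y-linked RNA. The number thus carries a shared trait in both genotypes, which a correlation over all genes need not show. In knockouts all 3 correlations were over 0.1 between the bone subsets (0.149 to 0.206) and between GFP-negative bone and marrow (0.126 to 0.177). GFP-positive bone and marrow gave 0.0972 to 0.144. The numbers were taken to pair the first 2 of these knockout contrasts, from the data and not from the labels. The main p-values nonetheless come from the fit without a block, and the blocked fit is an alternative. With the block the call of Slc7a11 changed in both, to higher (edgeR adjusted p = 0.0394 and 0.0238), and that of no other member.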

Additional observations from a re-analysis of the deposited data

Results flagged for a closer look

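For 4 of the 10 genes a test of the difference itself found that the knockout effect was not the same in every subset, in 5 contrasts. Of all genes tested, 6.08% passed between the bone subsets, 7.79% for GFP-negative bone minus marrow and 18.4% for GFP-positive bone minus marrow. On the log2 scale, the effect on Mthfd2 was higher in GFP-positive than in GFP-negative bone by 1.06 ± 0.22 and higher in GFP-positive bone than in marrow by 1.49 ± 0.23 (edgeR adjusted p = 0.00569 and 0.000175). The effect on Asns was higher in GFP-positive bone than in marrow by 1.20 ± 0.25 and that on Slc7a5 by 1.29 ± 0.32 (edgeR adjusted p = 0.00285 and 0.0105). The effect on Phgdh was lower in GFP-positive bone than in marrow, at -0.68 ± 0.20 (edgeR adjusted p = 0.0262). That call was lost in 10 of 23 alternative settings, and the call of Slc7a5 in 2 of 23.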

How the results depend on the processing

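Of 2069 values of single genes of the set under another setting, 1965 kept their side of the threshold and did not turn a call, among them 48 that changed sign with neither value called. A further 56 passed the threshold newly, 47 lost it, and 1 turned: Atf4 in GFP-negative bone, at 0.34 with the length correction on the longest transcript (chosen after seeing the data; edgeR adjusted p = 0.0469) against -0.03. The cause was not tested. The number of the 10 genes called in GFP-positive bone was 8 with that correction against 5, and 5 to 6 with 1 library left out. For the difference between the bone subsets it was 1, against 2 with DESeq2, either length correction or the replicate block, 3 with length correction and replicate block together, 5 with a replicate block within genotype (added after seeing the data), and 1 to 3 with 1 library left out. Without GFP-negative knockout replicate 3 it was 2 and without GFP-positive knockout replicate 1 it was 3. For GFP-negative bone minus marrow it was 0, against 3 with library totals alone, 2 with the block within genotype, and 0 to 1 with 1 library left out (1 without control marrow replicate 1 or knockout marrow replicate 2). Over all genes, library totals alone gave 3740 calls for that difference against 1209, and 5677 for GFP-positive bone minus marrow against 2853. That scaling moved the median log2 fold change of all genes to 0.08 in marrow, -0.34 in GFP-positive bone and -0.30 in GFP-negative bone. The share of higher among called genes moved with it from 48.2 to 59.6% for the knockout effect in marrow, from 50.7 to 30.9% in GFP-positive bone and from 45.6 to 30.8% in GFP-negative bone. For the difference of the effect between the bone subsets it was 81.8%, and 62.2% with totals (DESeq2 62.1%, RLE 70.7%). For GFP-negative bone minus marrow it was 57.6%, and 10.9% with totals (RLE 70.7%), and for GFP-positive bone minus marrow it was 58.7%, and 13.5% with totals. Among controls, totals took it from 45.5 to 62.2% for the bone subsets and 53.7 to 27.6% for GFP-negative bone over marrow. Among knockouts, GFP-negative bone over marrow went from 48.2 to 16.02%, and GFP-positive bone over marrow from 48.5 to 26.2%.

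The replicate block changed, among contrasts of knockout with control, the Slc7a11 call in marrow, and no call of the 10 genes between control subsets. On log2(CPM + 1) the correlations of same-numbered libraries within a genotype were higher. All 3 were then over 0.1 also in knockout GFP-positive bone against marrow (0.134 to 0.178) and control GFP-negative bone against marrow (0.117 to 0.169). Between genotypes they reached 0.172 in marrow, where 1 was over 0.1, so this check depends on the scale. With 3 libraries a group, an effect whose p missed the threshold is not shown to be absent.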
